A study of Mus musculus with 24 samples.

Results

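Cortical neuron cultures that had lost Smarcc2 and carried its S586A form were compared with cultures that had lost Smarcc2 and carried the vector, all of them depolarized with KCl. The comparison rests on 5 of the 24 libraries of the series, chosen by their titles: 2 depolarized libraries of the Smarcc2 knockout with S586A added back (replicates 1 and 2) and 3 depolarized libraries of the knockout with vector (replicates 1 to 3). All 5 came from primary neurons of the mouse cortex at embryonic day 16.5, grown for 18 days in vitro (DIV18) with CRISPR guide RNAs against Smarcc2. Every one was kept overnight in 1 µM of the sodium channel blocker tetrodotoxin with 100 µM of the NMDA receptor blocker D-AP5, and then received 50 mM KCl for 30 minutes. Other DIV18 groups of the series served as reference values: the knockout with wild-type Smarcc2 added back (WT, 3 depolarized libraries), a non-targeting guide RNA (NT, 2 depolarized and 2 resting) and the knockout with vector at rest (3). Resting cultures had the same silencing without KCl. Per the labels' protocols, the cortex of each embryo counted as a biological replicate, and ribosomal RNA was depleted before the libraries were made. The S586A libraries held 18379962 to 19448891 estimated counts and the vector libraries 14510199 to 18731047. The series holds no resting library with S586A, so the size of the KCl response in S586A cultures has no value below. The share of cells that lost Smarcc2, the promoter of the added construct, and the strain and sex of the embryos are not given in the sources used here.

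BAF complexes use the energy of ATP to move or evict nucleosomes and so change which DNA is open to transcription factors. Smarcc2 encodes BAF170, one of a pair of related scaffold subunits with BAF155 (Smarcc1), around which the complex is built. Replacement of a serine by alanine removes the hydroxyl group that a kinase can phosphorylate, and serine phosphorylation of Smarcc2 is the question the design text names for these constructs. Depolarization with KCl lets calcium into neurons and switches on early-response genes such as Fos and Npas4 within minutes.

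The codon behind the name S586A depends on the transcript from which residues are counted. Smarcc2 (ENSMUSG00000025369.15) lies on chromosome 10, 128459248 to 128490482, plus strand, in GENCODE M21 on build GRCm38, and has 3 long coding transcripts there, which encode 1099 residues (Smarcc2-201), 1130 (Smarcc2-202) and 1213 (Smarcc2-203). Counted along Smarcc2-202, the codon at the position in the label is TCC, a serine codon, in exon 19. Counted along Smarcc2-201 or Smarcc2-203, which lack a stretch of 31 codons present in Smarcc2-202, the codon at that position is AAC, an asparagine codon, in exon 18, and the TCC codon above is number 555. The sequences below show both places on the plus strand, 5′ to 3′, with the codon in capitals, because the counts described next fell mainly on transcripts in which the TCC codon does not have the number in the label. The numbering behind the label and the cDNA that was added back are not given in the sources used here.
The labelled codon position in Smarcc2-202, chr10:128482083-128482109: cagagctctgctTCCcagcaaatgctg
The labelled codon position in Smarcc2-201 and Smarcc2-203, chr10:128482176-128482202: tacacaaagaagAACgtcccctccaag

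Smarcc2 and Pgk1 were the 2 genes that passed the test, Smarcc2 higher with S586A and Pgk1 lower. They were 2 of 20940 genes tested (0.00955%; quasi-likelihood F test of edgeR, adjusted p under 0.05 over all genes). Values per library are CPM, estimated counts scaled to a common library size by TMM normalisation. Without adjustment 1445 genes (6.9%) were higher and 1285 (6.14%) lower at a p under 0.05, and the median log2 fold change over all genes was -0.017. DESeq2 called 215 genes (158 higher, 57 lower; 3.19% of the 6731 to which it gave an adjusted p) and edgeR without the low-count filter 531 (355 higher, 176 lower; 1.29% of 41147), so the count rests on the tool and the filter. Below, a gene is called where edgeR with the filter passed it, and calls by these other fits are named as such. A gene that DESeq2 did not call may have had no adjusted p there. Both genes were called under all 14 alternatives tried.

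Smarcc2 stood at 1339.9 and 1303 CPM in the S586A libraries and at 49.1, 47.5 and 60.0 CPM in the vector libraries. Both S586A libraries lay far above all 3 vector libraries, with means of 1322 ± 25.9 (SD, n = 2) and 52.2 ± 6.77 (SD, n = 3). For this gene the log2 fold change was 4.66 (SE 0.150, 25.3-fold, adjusted p 4.71e-13, edgeR). Depolarized NT cultures, which keep the endogenous gene, had 274 and 283 CPM, and S586A exceeded them by a log2 fold change of 2.25 (adjusted p 4.65e-07, edgeR).

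The Smarcc2 counts of S586A cultures were assigned to other transcripts than those of NT cultures. Smarcc2-203, the longest coding form, had 850 and 795 CPM with S586A against 7.05, 4.03 and 7.57 CPM with vector, a 133-fold ratio of the means. Smarcc2-201 had 383 and 375 CPM with S586A against 21.9, 21.8 and 17.1 CPM with vector. Smarcc2-202, the form in which the labelled position is a serine codon, had 17.8 and 26.9 CPM with S586A against 12.5, 15.3 and 28.3 CPM with vector, and these libraries overlap. In NT cultures Smarcc2-202 led, with 162 and 158 CPM, or 59.2% and 55.8% of the gene's counts, whereas in S586A cultures it held 1.33% and 2.07%. Depolarized WT cultures resembled S586A cultures in this split, with 1.83% to 2.69% on Smarcc2-202 and 57.4% to 64.4% on Smarcc2-203. A short noncoding form, Smarcc2-206, followed the added construct too: 85.6 and 99.2 CPM with S586A and 4.06 to 4.85 CPM with vector. The program that assigned the reads divides those shared between forms by estimation, so the split between forms is less certain than the gene's sum.

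**Figure D1:**
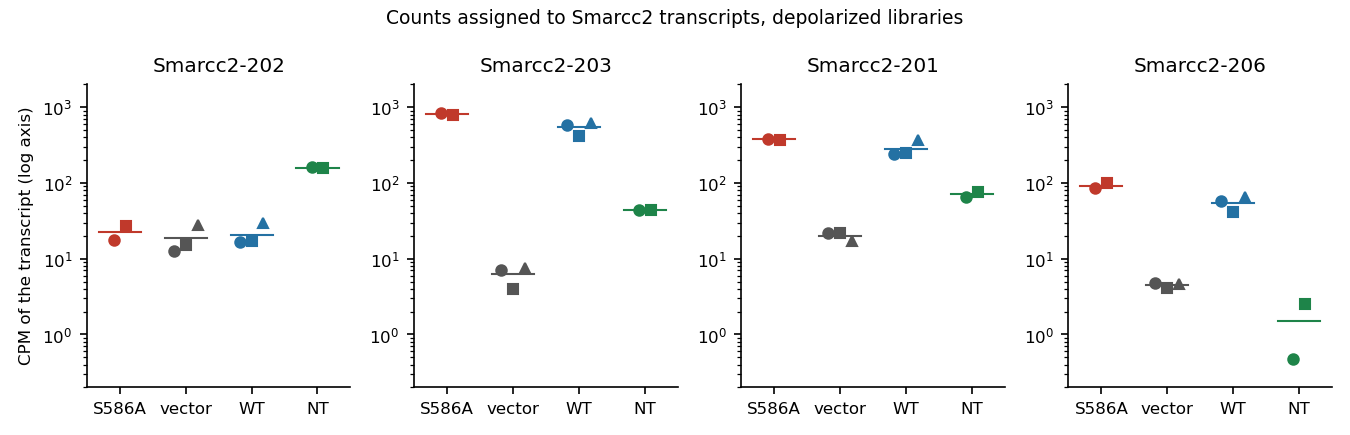
CPM (log axis) assigned to 4 Smarcc2 transcripts in each depolarized library: S586A (2 libraries), vector (3), WT (3) and NT (2). Points are libraries (circle, square and triangle for replicates 1, 2 and 3) and bars are means; Smarcc2-203 is at 795 to 850 CPM with S586A and 4.03 to 7.57 CPM with vector, while Smarcc2-202 overlaps between those groups and is high in NT.

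Smarcc1, the related scaffold subunit, had 85.9 and 87.7 CPM with S586A and 91.4, 85.9 and 81.8 CPM with vector. The groups overlap, and the log2 fold change of 0.01 (SE 0.0833, adjusted p 0.986, edgeR) changed sign between alternatives (-0.11 to 0.05). Of 30 genes for subunits of BAF-type complexes, all tested, Smarcc2 was the only one called, and the median log2 fold change was 0.08, with 23 above 0. Of the ATPases, Smarca4 had a log2 fold change of 0.02 and Smarca2 of 0.17. Of the subunits that mark neuronal BAF, Actl6b (53.1 and 56.7 CPM with S586A; 50.4, 50.6 and 50.6 CPM with vector) had 0.12, Dpf1 0.10 and Ss18l1 0.03. Bicral, a subunit of the noncanonical complex, had 51.0 and 53.8 CPM with S586A against 62.8, 62.6 and 63.7 CPM with vector. It had the lowest unadjusted p of the list after Smarcc2 (8.75e-04, log2 fold change -0.27) and was named for that after its values were seen. Arid1a, a DNA-binding subunit, had 182 and 179 CPM with S586A against 223, 239 and 211 CPM with vector (-0.31, unadjusted p 0.00507). Neither passed the adjusted test in edgeR, and DESeq2 called Bicral.

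Pgk1 (ENSMUSG00000062070.12, on the plus strand of chromosome X from 106187100 to 106203699), which encodes the glycolytic enzyme phosphoglycerate kinase, was the gene called lower. It had 601 and 665 CPM with S586A and 1525, 1367 and 1671 CPM with vector. Both S586A libraries lay far below all vector libraries. The log2 fold change was -1.26 (SE 0.105, adjusted p 4.02e-06, edgeR). Depolarized WT cultures had 597, 543 and 506 CPM and NT cultures 528 and 452 CPM, so the vector libraries are the ones that stand apart; at rest the vector libraries had 1292, 1269 and 1278 CPM. Nearly all counts of the gene were on its coding transcript Pgk1-201 in each library.

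The other glycolysis genes lay on the opposite side of 0. Of 19 tested gene records (Aldoa has 2), 18 had a log2 fold change above 0 and 13 (68.4%) had both S586A libraries above all vector libraries, where over all genes this held for 3331 (15.9%). The median was 0.29 (0.18 to 0.36 over the alternatives) and none of the 18 was called in edgeR. DESeq2 called Pkm among them, and the fit without the low-count filter called 7 of them, Pkm included. Pkm, pyruvate kinase, had 919 and 1126 CPM with S586A against 781, 853 and 794 CPM with vector (0.34, unadjusted p 0.0046). Ldhb, a lactate dehydrogenase, had 186 and 192 CPM against 153, 157 and 153 CPM (0.29, unadjusted p 0.00309). Pgam1, phosphoglycerate mutase, had 478 and 626 CPM against 431, 448 and 437 CPM (0.33, unadjusted p 0.00555).

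The genes described next, near the threshold, had adjusted p-values between 0.088 and 0.132 in edgeR, and none of them passed. Above 0, Oaz1, antizyme of polyamine synthesis, had 81.5 and 76.3 CPM with S586A against 59.1, 60.3 and 59.0 CPM with vector (log2 fold change 0.41, SE 0.0774, adjusted p 0.088). Dohh, an enzyme that modifies the translation factor eIF5A, had 50.6 and 56.1 CPM against 39.2, 39.9 and 38.5 CPM (0.44). In both genes the S586A libraries lay above all depolarized vector, WT (65.0 to 73.9 CPM of Oaz1, 39.7 to 45.4 CPM of Dohh) and NT libraries. Rps3 and Rpl13a, ribosomal proteins, and Uqcrh, a subunit of respiratory complex III, had 0.48, 0.41 and 0.44. Rpl5 (0.83) is uncertain, since it has processed copies elsewhere in the genome that can take its reads. Oaz1, Dohh, Rps3, Rpl13a and Uqcrh each passed with DESeq2 and without the low-count filter, and in no other alternative.

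Below 0, Prrc2c, an RNA-binding protein gene, had 287 and 278 CPM with S586A against 365, 371 and 344 CPM with vector (-0.35, adjusted p 0.0939, edgeR). Zdbf2, an imprinted gene, had 65.2 and 51.8 CPM against 80.6, 86.7 and 100.2 CPM (-0.61, adjusted p 0.088). Unc5c, a netrin receptor, had 31.8 and 25.7 CPM against 40.0, 45.8 and 54.2 CPM (-0.70). Malrd1 was the gene of this group with the widest ratio, at 0.153 and 0.116 CPM with S586A and 1.64, 2.08 and 2.74 CPM with vector (-3.92, adjusted p 0.088). Alkal2, a ligand of the receptor Alk, had 1.07 and 0.463 CPM against 2.66, 2.73 and 4.63 CPM (-2.09). The rest were Zc3h12b (-0.54), Adam19 (-0.57), Fam135b (-0.37) and Csmd1 (-0.32), with the S586A libraries below all vector libraries in each, as the selection of these genes required. Over all genes 3365 (16.1%) had both S586A libraries below all vector libraries. Depolarized WT (0.0895 to 0.432 CPM) and NT libraries (0.0474 to 0.107 CPM) of Malrd1 also lay below all vector libraries. So did the WT and NT libraries of Zdbf2, Alkal2, Zc3h12b and Adam19, where vector was the group that stood apart. For Unc5c, Fam135b and Csmd1 WT or NT overlapped with vector, and NT lay above vector for Prrc2c (391 and 401 CPM).

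**Figure D2:**
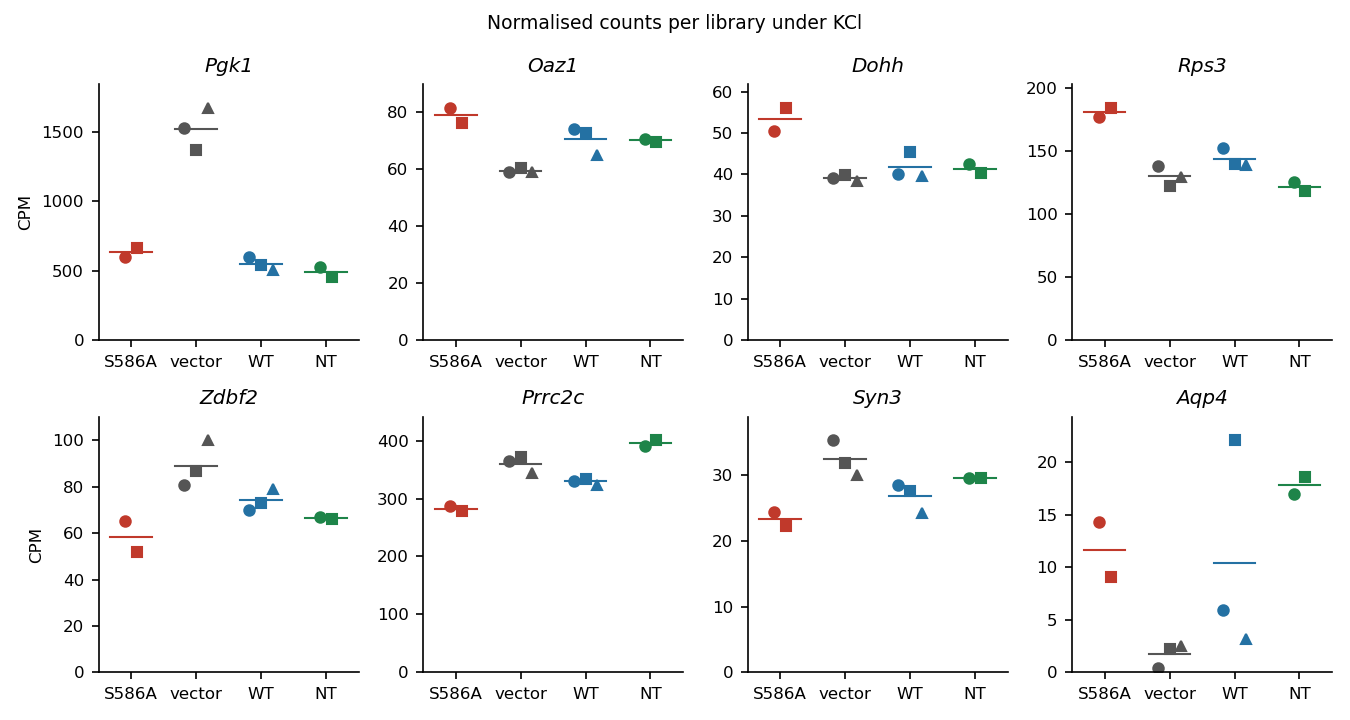
CPM of 8 genes in each depolarized library of the S586A, vector, WT and NT groups; points are libraries (circle, square and triangle for replicates 1, 2 and 3), bars are means and each axis starts at 0. Pgk1 passed the adjusted test between S586A (601 and 665 CPM) and vector (1367 to 1671 CPM), and the other 7 genes did not.

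Early-response genes gave no called difference between S586A and vector. Of 23 listed and tested, none was called in edgeR or without the low-count filter. DESeq2 called Sik1 among the 14 to which it gave an adjusted p. Of the 23, 15 had a log2 fold change above 0, and the median was 0.13 (-0.06 to 0.23 over 14 alternatives, with 1 of them below 0). Fos, an AP-1 factor, had 99.8 and 101 CPM with S586A and 101, 111 and 51.2 CPM with vector (0.19, SE 0.481, adjusted p 0.906, edgeR). Npas4, a factor induced by calcium, had 49.2 and 42.4 CPM against 42.1, 48.2 and 25.6 CPM (0.24, SE 0.530). In both genes the S586A libraries sat close to vector replicates 1 and 2, and vector replicate 3 was the lowest library.

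That library was also the lowest of the 5 for Fosb (80.6 CPM), Junb (99.9), Egr1 (162), Egr4 (40.5), Arc (129) and Ier2 (33.2). The S586A libraries had 128 and 105 CPM of Fosb, 244 and 197 CPM of Egr1, and 192 and 189 CPM of Arc. Fos, Fosb and Egr1 changed sign without vector replicate 3 (-0.08, -0.03 and -0.08). The standard errors of the log2 fold changes were 0.283 to 0.530 for the 10 early genes plotted. At rest with vector Fos had 4.59 to 8.34 CPM and Npas4 0.485 to 1.27 CPM, far under all 5 depolarized libraries. Sik1, a kinase that restrains CREB coactivators, had 22.1 and 19.8 CPM with S586A against 26.6, 31.2 and 29.5 CPM with vector (-0.47, unadjusted p 0.00229, adjusted p 0.171). Nr4a3 (-0.36) and Fosl2 (-0.32) also had an unadjusted p under 0.05, with all S586A libraries below the vector libraries. Amigo3, a cell adhesion gene, went the other way without overlap, with 3.63 and 4.63 CPM against 2.71, 2.61 and 2.35 CPM (0.69, unadjusted p 0.0112, adjusted p 0.251). At rest with vector, Sik1 had 21.1 to 25.1 CPM, Nr4a3 23.2 to 26.0, Fosl2 28.4 to 32.6 and Amigo3 2.96 to 3.76 CPM. Under KCl the vector libraries had 23.1 to 26.4 CPM of Nr4a3 and 28.1 to 29.2 CPM of Fosl2. Thus Nr4a3, Fosl2 and Amigo3 did not rise with KCl in vector cultures, and Sik1 rose little.

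**Figure D3:**
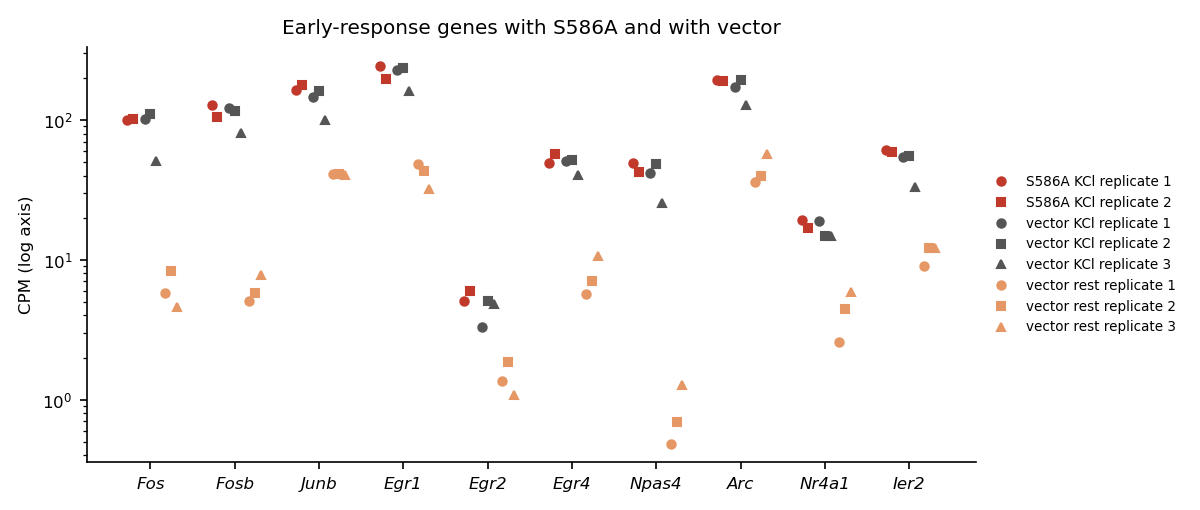
CPM (log axis) of 10 early-response genes in each library with S586A under KCl (2 libraries), with vector under KCl (3) and with vector at rest (3). The S586A points fall among vector replicates 1 and 2 or close to them, vector replicate 3 is low for most genes, and all resting values lie below all depolarized values of the same gene.

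Of 10 late-response genes, such as the neurotrophin gene Bdnf and the scaffold gene Homer1, none was called in edgeR. DESeq2 gave an adjusted p to 5 of the 10 and called none of them. Scg2 was called, lower, without the low-count filter. Of the 10, 1 had a log2 fold change above 0 (Nrn1, 0.10), with a median of -0.25 (-0.35 to -0.12 over the alternatives). Homer1 had 126 and 114 CPM with S586A against 134, 137 and 134 CPM with vector (-0.17). Bdnf had 9.56 and 8.27 CPM against 8.09 to 16.6 CPM (-0.41), with vector replicate 3 as the high library. Of 557 genes induced by KCl in DIV7 cultures of the series, 329 were tested here and none was called in edgeR, with a median of -0.12 and 143 above 0. DESeq2 called 2 of the 24 to which it gave an adjusted p (3.19% over all genes). The fit without the low-count filter called 7 of the 329 (1.29% over all genes). The sign of the median turned (0.03) without S586A replicate 2. Clca1, which the treatment protocol names as a gene of excitotoxicity, had 0.204 and 0.231 CPM with S586A and 0.256, 0.178 and 0.456 CPM with vector (-0.42, unadjusted p 0.593).

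Genes that were lower in resting vector cultures than in resting NT cultures lay mostly above 0 for S586A against vector under KCl. That list was taken from resting libraries, which do not enter the present comparison, but from the same fit and with the same vector construct. Whether resting and depolarized vector libraries shared embryos is not given in the sources used here. The list held 789 genes, with Smarcc2 left out. None was called in edgeR. DESeq2 called 37 of the 422 to which it gave an adjusted p (3.19% over all genes), 36 of them higher. Without the low-count filter 56 of the 789 were called (1.29% over all genes), 55 of them higher. Of the 789, 617 (78.2%) had a log2 fold change above 0 and the median was 0.15. Over all genes 47.4% were above 0 and the median was -0.017. Both S586A libraries lay above all vector libraries for 306 (38.8%; 15.9% over all genes). Summed over the list, S586A libraries had 52767 and 53800.3 CPM, vector libraries 46999 to 49125, WT libraries 49443 to 54491 and NT libraries 60152 to 61534, so S586A stood between vector and NT. Gpc1, a heparan sulphate proteoglycan (151 and 193 CPM with S586A; 127, 137 and 128 CPM with vector; log2 fold change 0.40, adjusted p 0.132), was among the genes with the smallest p of the list.

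The 446 genes that were higher in resting vector cultures than in resting NT cultures had a median of -0.10. Of these 293 were at or below 0, and 148 (33.2%; 16.1% over all genes) had both S586A libraries below all vector libraries. Pgk1 was the 1 called in edgeR. DESeq2 called 9 of the 228 to which it gave an adjusted p (3.19% over all genes), all lower. Without the low-count filter 13 of the 446 were called (1.29% over all genes), 11 of them lower. Medians against NT were -0.19 for the first list and 0.14 for the second with S586A, and -0.31 and 0.25 with vector, with the depolarized NT libraries shared between these comparisons. The medians of WT against vector, which share the vector libraries, were 0.15 and -0.14. Median GC content was 53.9% in the first list and 48.8% in the second, and with a correction for GC content (GC offsets) the medians of S586A against vector were 0.13 and -0.07.

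Genes for the translation and respiration machinery lay above 0 as groups. These lists were drawn up after the values were seen. All 78 tested genes of cytoplasmic ribosomal proteins had a log2 fold change above 0, with a median of 0.32, and 69 (88.5%; 15.9% over all genes) had both S586A libraries above all vector libraries. An unadjusted p under 0.05 was found for 61, all higher (6.9% over all genes), and none was called in edgeR. Rps3 had 177 and 184 CPM with S586A and 138, 122 and 129 CPM with vector, and Rpl13a 321 and 333 CPM against 253, 237 and 250.5 CPM. DESeq2 and the fit without the low-count filter each called 23 of them, of 158 and 355 genes that these fits called higher in all. Of 81 nuclear genes of oxidative phosphorylation 79 were above 0, with a median of 0.29, and none was called in edgeR. DESeq2 called 15 of the 72 to which it gave an adjusted p (3.19% over all genes). Without the low-count filter 18 of the 81 were called (1.29% over all genes). Uqcrh had 74.4 and 85.9 CPM against 59.8, 59.3 and 58.2 CPM. The medians of S586A against WT were 0.13 and 0.18. WT against vector, which shares the vector libraries, had medians of 0.17 and 0.09. In that comparison 78 of 78 ribosomal protein genes and 73 of 81 oxidative phosphorylation genes were above 0. The mRNAs of the mitochondrial genome had a median of 0.05, which turned to -0.20 without S586A replicate 2 and was 0.48 with GC offsets (their median GC content is 37.1%). None of the 13 was called in edgeR or DESeq2, and 3 were without the low-count filter.

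Small noncoding RNAs, a list also drawn up after the values were seen, had the largest median of the lists described, 0.75 over 165 genes tested of 3503 annotated, with 144 above 0. None was called in edgeR. DESeq2 called 3 of the 38 to which it gave an adjusted p (3.19% over all genes), all higher. Without the low-count filter 44 of the 165 were called (1.29% over all genes), all higher. Rny3, a Y RNA, had 173 and 132 CPM with S586A and 63.3, 51.3 and 15.8 CPM with vector (1.80, adjusted p 0.088, edgeR). Rnu12, an RNA of the minor spliceosome, had 32.4 and 24.9 CPM against 8.60, 11.8 and 3.13 CPM (1.86, adjusted p 0.088). WT libraries lay with vector here: 40.9, 36.6 and 41.4 CPM of Rny3, a list median of -0.15 for WT against vector, and 0.98 for S586A against WT. NT libraries had 85.7 and 104 CPM of Rny3, between vector and S586A, and 15.5 and 24.9 CPM of Rnu12, above all vector libraries. The list median was 0.45 for S586A against NT and -0.39 for vector against NT. Such genes have many near-identical copies and a median effective length of 31 bases in this table, and the ribosomal protein genes are short too (482 bases, against 2136 over all genes). Summed levels of small noncoding RNAs were 98314 and 100079.6 CPM with S586A and 74504 to 80611 CPM with vector. In sum, depolarized NT libraries (74179.5 to 82953 CPM) lay with vector, and WT libraries had 79479 to 90986 CPM. The part of small noncoding RNAs in the ribosomal protein and respiration results was not tested.

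Composition of the libraries by GC content also differed between the groups. In the 4188 genes with the lowest GC content the median log2 fold change was -0.22, and in the 4188 with the highest it was 0.10; with GC offsets these were -0.01 and 0.01. The median deviation of a library from the mean of the depolarized libraries, highest GC group minus lowest, was 0.11 and 0.20 for S586A, -0.09, 0.00 and -0.18 for vector, -0.02, 0.03 and -0.22 for WT, and 0.09 and 0.08 for NT. Both S586A libraries lay above all vector and WT libraries in this measure. With GC offsets 3 genes were called, Smarcc2, Pgk1 and Rpl5, and the median of the ribosomal protein genes was 0.30. By length, the median went from 0.08 in the 4188 shortest genes to -0.09 in the 4188 longest.

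**Figure D4:**
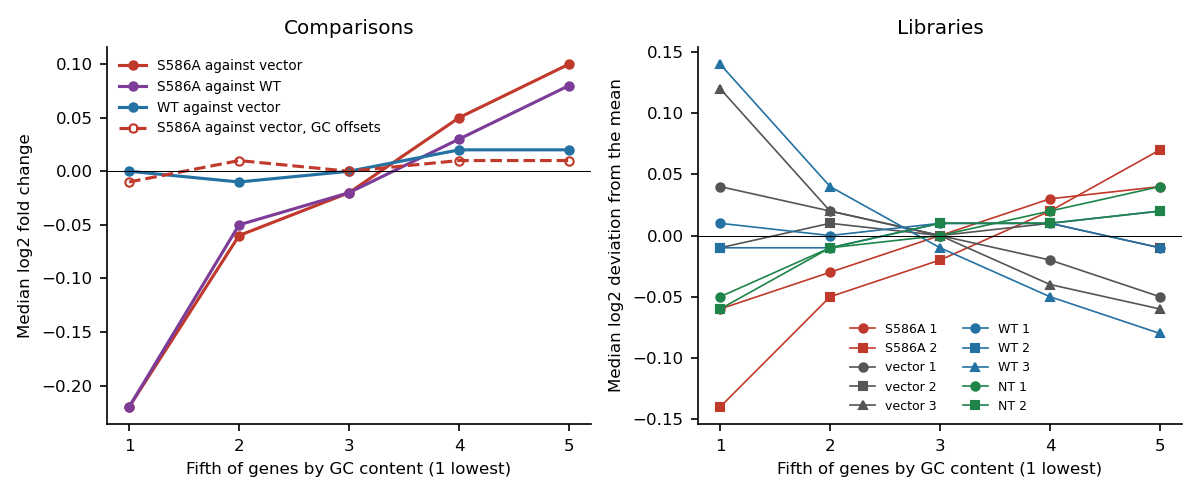
Left, median log2 fold change in 5 groups of the genes tested by GC content (4188 genes each) for S586A against vector (with and without GC offsets), S586A against WT and WT against vector; right, median log2 deviation of each depolarized library from the mean of these libraries. S586A against vector goes from -0.22 to 0.10, WT against vector stays within -0.01 to 0.02, and the S586A and NT libraries slope upward.

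The cultures carried the markers of neurons at high levels. Map2, a dendritic protein, had 942 and 977 CPM with S586A and 1042, 1048 and 1027 CPM with vector, so both S586A libraries lay below the vector libraries. Of the 10 neuron markers 8 were above 0, with a median of 0.18, and 5 had both S586A libraries above all vector libraries. Stmn2, a microtubule regulator, had 339 and 372 CPM with S586A against 300.4, 314 and 314 CPM with vector (0.20, unadjusted p 0.0271), and Tubb3, a neuronal tubulin, 302 and 393 CPM against 264, 266 and 299.6 CPM (0.33, unadjusted p 0.0424). None was called in edgeR or DESeq2, and Nefl and Tubb3 were, higher, without the low-count filter. Excitatory and inhibitory markers had medians of 0.05 and 0.07, and the latter turned negative in 5 of 14 alternatives. Neurod2, a factor of excitatory neurons, had 172 and 206 CPM with S586A against 152, 147 and 141 CPM with vector (0.37, unadjusted p 0.00288; called with DESeq2 and without the low-count filter), and Slc17a6, a vesicular glutamate transporter, 23.3 and 23.4 CPM against 31.8, 31.5 and 29.3 CPM (-0.41, unadjusted p 0.0116).

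Astrocyte markers were above 0 in 10 of 10 cases, with a median of 0.40 (0.16 to 0.54 over the alternatives). For WT against vector 10 of 10 were above 0 too, with a median of 0.37. None was called in edgeR or among the 6 to which DESeq2 gave an adjusted p. Without the low-count filter Aldh1l1, Aldoc, Aqp4 and Gfap were called. Aqp4, the astrocyte water channel, had 14.3 and 9.03 CPM with S586A and 0.461, 2.25 and 2.54 CPM with vector (2.78, SE 0.774, adjusted p 0.164, edgeR), without overlap. WT libraries ran from 3.22 to 22.1 CPM of Aqp4, all above the vector libraries and on both sides of the S586A libraries, NT libraries had 17.0 and 18.6 CPM, and resting vector libraries 11.4, 11.8 and 1.97 CPM. Gfap had 99.7 and 87.1 CPM with S586A against 38.9, 65.3 and 49.7 CPM with vector (0.87, unadjusted p 0.146). Summed over the list, astrocyte markers had 1202 and 1059 CPM with S586A, 876 to 996 CPM with vector, 986 to 1313 CPM with WT and 1505 to 2063 CPM with NT. In such bulk samples fewer cells of a type and less RNA per cell cannot be told apart, and the part of astrocyte RNA in the other results was not tested.

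Markers of other cells were scarcer. Progenitor markers, which astrocytes share in part (Vim, Nes, Sox2, Hes5), were above 0 in 7 of 7 cases, with a median of 0.46. Oligodendrocyte lineage markers had a median of 0.49 over 11 tested of 12, with 132 and 138 CPM in sum with S586A and 121 to 142 CPM with vector, and Olig1 had 6.90 and 4.46 CPM against 2.51, 3.14 and 2.15 CPM. Of 8 microglia markers 3 were tested, the complement genes C1qa and C1qb were at 0 in all 5 libraries, and the summed level of those tested was 3.99 to 6.95 CPM with S586A and 4.66 to 5.81 CPM with vector. Fibroblast and vessel markers (median 0.33) and proliferation genes (0.38) turned negative without S586A replicate 1 (-0.52 and -0.58). For WT against vector the medians were 0.46 for progenitor, 0.83 for oligodendrocyte lineage and 0.03 for microglia markers. They were 0.55 for fibroblast and vessel markers and 0.51 for proliferation genes.

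Genes of synaptic transmission showed no called member in edgeR. DESeq2 called Syn3, Pclo, Cacna1e and Kcnq3, all lower; without the low-count filter Pclo and Kcnq3 were called lower and Cplx1 higher, and Syn3 was called with the replicate block and GC offsets. The 20 synaptic vesicle genes had a median of 0.09 with 15 above 0. Against that direction, Syn3, a synapsin, had 24.5 and 22.3 CPM with S586A and 35.4, 31.9 and 30.1 CPM with vector (-0.47, unadjusted p 4.86e-04, adjusted p 0.133), and Pclo, the active-zone scaffold piccolo, 247 and 238 CPM against 303, 329.6 and 315 CPM (-0.38, unadjusted p 9.30e-04, adjusted p 0.140). Cplx1, complexin, had 453 and 443 CPM against 371, 357 and 310 CPM (0.37, unadjusted p 0.0162).

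Of 21 glutamate receptor genes 5 were above 0, with a median of -0.14 (-0.16 to -0.05 over the alternatives). Grin2b, an NMDA receptor subunit, had 1012 and 1047 CPM with S586A and 1232, 1309 and 1196 CPM with vector (-0.27, unadjusted p 0.0154). Grik2, a kainate receptor subunit, had 32.9 and 28.4 CPM against 36.0, 37.3 and 43.5 CPM (-0.34). In both the S586A libraries lay below all vector libraries, and the WT libraries of Grin2b (1041, 1164 and 1059 CPM) overlapped with S586A and lay below vector. The 12 GABA-A receptor genes had a median of -0.03, which turned positive with GC offsets (0.12) or length offsets (0.03). Cacna1e, a calcium channel subunit, had 220 and 197 CPM against 256, 270.2 and 269 CPM (-0.35, adjusted p 0.133), and Kcnq3, of the M-type potassium channel, 76.7 and 84.4 CPM against 104, 112 and 114 CPM (-0.45, adjusted p 0.207).

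Polycomb genes (median 0.02), cholesterol synthesis genes (0.03), interferon-response genes (0.03), stress-response genes (-0.04), potassium channel genes (-0.06) and calcium channel genes (-0.06) lay between -0.06 and 0.03. None of their members was called in edgeR, and the other fits called Kcnq3 and Cacna1e, as above, and, without the low-count filter, Kcnj10 and Kcnn3. The RNA-depletion signs were the noncoding RNAs mt-Rnr1, mt-Rnr2 (mitochondrial ribosomal RNAs), Rn7sk, Rmrp and Rpph1, and the protein-coding gene Lars2. These 6 genes gave 7 tested gene records, as Rmrp has another record at the same place. Their median was 0.44 with 7 of 7 above 0. None was called in edgeR, 1 was with DESeq2 (Rmrp) and 5 without the low-count filter, Rmrp and Rpph1 among them.

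**Figure D5:**
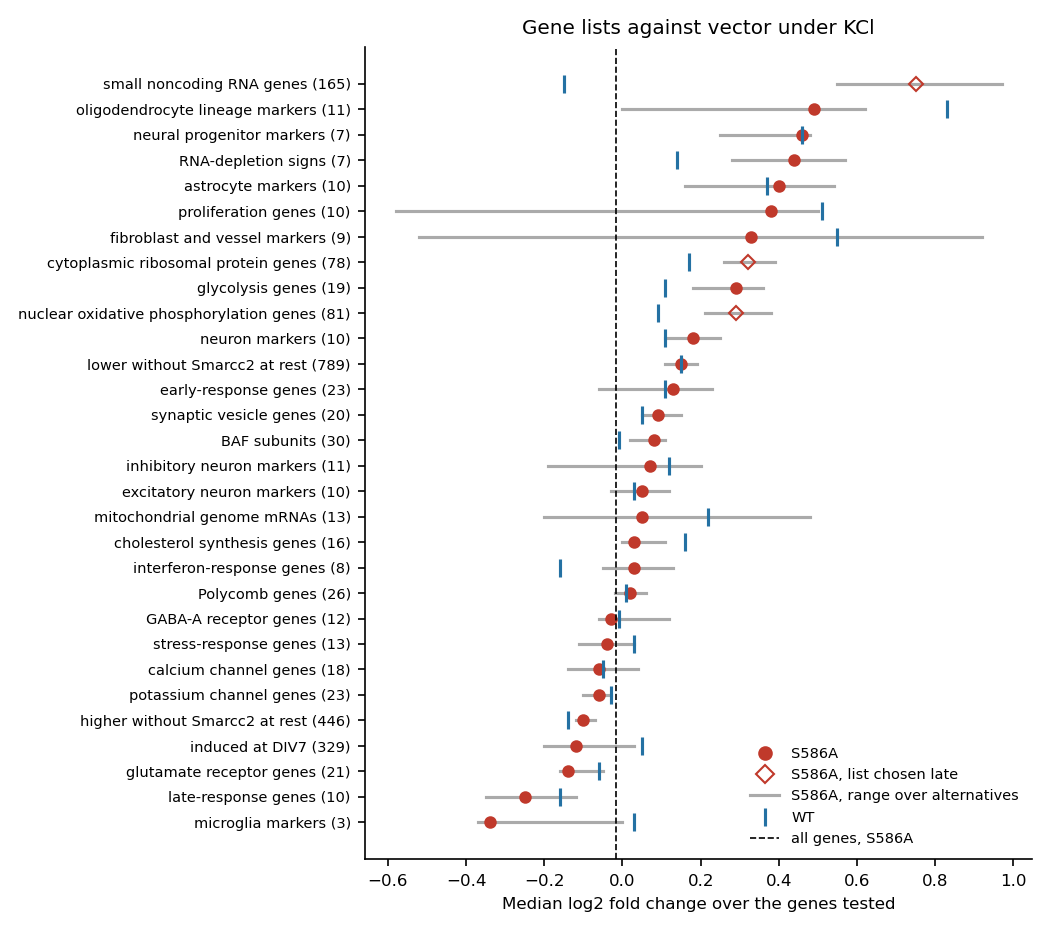
Median log2 fold change against vector under KCl for each gene list (number of genes tested in parentheses): red points, S586A (open diamonds, lists drawn up after the values were seen); grey bars, range over the alternatives; blue ticks, WT; dashed line, all genes with S586A (-0.017). Small noncoding RNAs lie at 0.75 with S586A and -0.15 with WT, and the grey bars of proliferation genes and of fibroblast and vessel markers cross 0.

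Compared with WT addback under the same depolarization, S586A gave 0 called genes of 20940 (0.0%) in edgeR, 1823 at an unadjusted p under 0.05 and 19 with DESeq2. WT against vector gave 2 (0.00955%), the same Smarcc2 (4.12) and Pgk1 (-1.47). Smarcc2 itself had 895, 737 and 1089 CPM in WT libraries, below both S586A libraries (log2 fold change of S586A against WT 0.54, unadjusted p 8.32e-04, adjusted p 0.338). Rny3 and Rnu12 had log2 fold changes of 1.94 and 1.91 against WT, with both S586A libraries above all WT libraries. Against depolarized NT, S586A had 90 called genes (0.43%; 40 higher, 50 lower), among them 21 of the 789 genes that were lower in resting vector cultures and 26 of the 446 that were higher. The count was 4 without NT replicate 2 and 7 without S586A replicate 2.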

How the data were processed

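RNA sequencing of 24 libraries was deposited as 1 table per library. Per the file headers, each table lists transcripts with an estimated count, a TPM value and 2 lengths. Reads were checked with FastQC, trimmed with cutadapt and quantified with kallisto, per the submitters' processing notes; versions, genome build and annotation are not given in the sources used here. The estimated counts deposited by the authors are fractional where reads were shared between transcripts. The deposited TPM values, which are corrected for length, served only to weight gene lengths and gene GC content. The effective length deposited by the authors entered the length offsets, the grouping of genes by length and the median lengths given above.

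Of 142552 transcripts, 141429 (99.2%) matched GENCODE M21 on GRCm38. The 1123 others held at most 0.467% of a library's counts and were left out. Estimated counts were summed per gene (55177 genes) and rounded to whole numbers. The 20 DIV18 libraries (14510199 to 24024959 counts) were fitted in 8 groups with edgeR 4.0.16 under R 4.3.3 (two-sided quasi-likelihood F test, TMM, filterByExpr, Benjamini-Hochberg over 20940 genes), with 12 residual degrees of freedom and a common biological coefficient of variation of 14.6%. CPM are TMM-normalised, and standard errors were derived from the F statistic. The script was tested on simulated counts. The count of 0 for a gene in a library covers counting error only.

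The alternatives tried were DESeq2 1.42.0, median-of-ratios size factors, no low-count filter, a replicate block, length offsets, GC offsets, the block with GC offsets, fits of fewer groups and fits without each library. A lone library left in a group was assumed to vary like the other groups.

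The named genes were Smarcc2, Smarcc1, Pgk1, Clca1, 10 early-response genes, the called genes of each list (or, where none was called, the 2 with the smallest p), and the 10 genes per direction that were called or came nearest, among genes that averaged at least 1 CPM, did not overlap between the groups and have a symbol other than those of predicted genes. A gene that this rule names is not reported here. The members, lists and rules were chosen with earlier results of these data known.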

Additional observations from a re-analysis of the deposited data

How the results depend on the processing

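Smarcc2 and Pgk1 were called in S586A against vector under all 14 alternatives (log2 fold changes 4.36 to 4.77 and -1.34 to -1.18). The count of 2 became 215 with DESeq2, 531 without the low-count filter, 7 with the replicate block and GC offsets, and 2 to 10 when 1 library was left out, with 10 without S586A replicate 1; the cause was not tested. With the replicate block alone it was 2. Same-numbered libraries of the S586A and vector groups deviated from their group means with correlations of -0.009 and 0.037. The 2 S586A libraries deviate as mirror images and have no replicate 3, so this cannot decide whether the numbers pair the samples. Replicate 3 was the lowest library of both vector and WT for Fos (51.2 and 32.7 CPM) and for the GC measure (-0.18 and -0.22). The labels do not say whether equal numbers in different groups share an embryo, and a shared replicate effect was not tested. S586A against WT gave 19 genes with DESeq2, 225 without the filter, 1 with the replicate block, 3 with the block and GC offsets, 22 when only the groups compared were fitted, and 0 to 1 with a library left out. WT against vector gave 6, 126 and, when only the depolarized groups were fitted, 4, and 2 to 4 with a library left out. S586A against NT gave 345 with DESeq2, 653 without the filter, 310 with the block, 290 with the block and GC offsets, 32 with length offsets, 12 with only the groups compared, 54 with only the depolarized groups, and 4 to 75 with a library left out.

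Signs turned for genes near 0. Smarcc1 had -0.03 with the replicate block, -0.11 with length offsets, -0.01 with only the groups compared, -0.00 with only the depolarized groups, and -0.03 to 0.05 with a library left out. With the block alone, and with GC offsets added to it, Fos had -0.14 and -0.15, Fosb -0.01 and -0.06, Npas4 -0.10 and -0.15, and Egr1 -0.12 and -0.15. Egr4 had -0.02 with GC offsets and -0.07 with the block added. With length offsets Dcn had -0.11 and Gabrb1 0.11. With a library left out Fos ran from -0.08 to 0.39, Fosb from -0.03 to 0.28, Egr1 from -0.08 to 0.24, Csf1r from -0.13 to 0.83, Dcn from -0.21 to 0.73, Rsad2 from -5.36 to 0.03 and Isg15 from -0.04 to 0.79.

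Standard errors of the log2 fold changes in S586A against vector ran from 0.121 to 0.572 over the 23 early-response genes. They are not limits of detection, since differences larger than the standard error also went uncalled. Examples are Sik1 (-0.47, SE 0.133, adjusted p 0.171, edgeR) and Amigo3 (0.69, SE 0.243, adjusted p 0.251, edgeR).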
